A study of Mus musculus with 9 samples.

Results

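The nuclear receptor superfamily was examined in mouse liver by comparing arrays from high-fat diet with arrays from control diet. The superfamily was taken as 47 genes listed by symbol, and a gene counted as measured where the array annotation paired at least 1 probe set with that symbol alone. Of the 47 genes, 44 were measured, by 113 probe sets, out of 17514 genes and 41782 probe sets in all. Nr1h2, Nr1h5 and Nr2e3 were not analysed here. Of the 44 measured receptors, 17 had 1 probe set and 27 had several, up to 9 for Rora.

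The 9 arrays were Affymetrix GeneChip hybridisations of total RNA from whole liver of c57Bl/6 mice. The control group had 4 arrays with the diet label control, and the other 5 carried the label HFD, a Harlan-Teklad diet with 21% fat and 42% of calories from fat. The growth protocol gives chow for the time before the study. Sex, age, time on the diet, hour of sampling and batch were not given in the sources used here, and no transgene or deletion is named in either group. The labels do not say whether each array holds a separate animal, and if they do not, the p-values hold technical spread alone.

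Nuclear receptors are transcription factors, most of which bind DNA through a zinc-finger domain and change their activity when a small lipophilic ligand such as a fatty acid, an oxysterol, a bile acid, a retinoid or a steroid occupies the ligand-binding pocket. Many work as a heterodimer with a retinoid X receptor, recruit coactivator complexes when ligand is bound and corepressor complexes when it is not. In liver they are known for setting fatty acid oxidation, lipid storage, bile acid synthesis, drug metabolism and the rhythm of many metabolic genes over the day.

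Promoter sequence is shown for the lipid sensors Ppara and Pparg, for the pair of REV-ERB genes that both rose, for Hnf4a, whose probe sets disagreed, and for Nr6a1, which with Nr1d2 passed the test whichever array was left out. Each run gives 150 bases immediately before a transcript start in RefSeq (GRCm38.p6), 5′ to 3′ on the strand of the gene. Capitals mark AGGTCA or its reverse complement TGACCT, the half-site that most nuclear receptors bind, and would also mark CACGTG, the E-box bound by the clock activators.
Ppara (chr15:85735626-85735775, + strand): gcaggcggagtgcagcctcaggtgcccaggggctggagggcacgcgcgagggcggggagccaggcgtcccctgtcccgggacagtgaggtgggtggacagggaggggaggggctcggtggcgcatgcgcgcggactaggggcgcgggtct
Pparg start 1 (chr6:115360994-115361143, + strand): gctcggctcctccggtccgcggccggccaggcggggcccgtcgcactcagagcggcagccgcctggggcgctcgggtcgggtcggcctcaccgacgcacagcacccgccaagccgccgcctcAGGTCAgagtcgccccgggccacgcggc
Pparg start 2 (chr6:115362199-115362348, + strand): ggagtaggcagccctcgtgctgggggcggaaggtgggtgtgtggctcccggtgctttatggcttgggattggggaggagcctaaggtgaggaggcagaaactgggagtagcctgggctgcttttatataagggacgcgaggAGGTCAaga
Pparg start 3 (chr6:115421916-115422065, + strand): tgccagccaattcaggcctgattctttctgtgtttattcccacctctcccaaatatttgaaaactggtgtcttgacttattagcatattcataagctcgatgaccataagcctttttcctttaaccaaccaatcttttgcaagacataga
Nr1d1 (chr11:98775378-98775527, - strand): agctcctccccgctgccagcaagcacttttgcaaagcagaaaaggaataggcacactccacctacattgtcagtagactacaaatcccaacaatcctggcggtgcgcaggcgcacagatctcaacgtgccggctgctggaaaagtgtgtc
Nr1d2 (chr14:18239107-18239256, - strand): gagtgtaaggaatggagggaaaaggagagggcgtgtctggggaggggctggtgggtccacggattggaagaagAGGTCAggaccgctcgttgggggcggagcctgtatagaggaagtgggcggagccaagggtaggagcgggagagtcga
Hnf4a start 1 (chr2:163506707-163506856, + strand): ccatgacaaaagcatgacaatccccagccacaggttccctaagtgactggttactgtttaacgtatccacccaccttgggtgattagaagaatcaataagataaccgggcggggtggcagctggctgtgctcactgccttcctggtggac
Hnf4a start 2 (chr2:163547005-163547154, + strand): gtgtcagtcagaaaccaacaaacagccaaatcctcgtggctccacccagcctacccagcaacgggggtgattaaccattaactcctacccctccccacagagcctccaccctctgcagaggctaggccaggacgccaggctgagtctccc
Nr6a1 start 1 (chr2:38926462-38926611, - strand): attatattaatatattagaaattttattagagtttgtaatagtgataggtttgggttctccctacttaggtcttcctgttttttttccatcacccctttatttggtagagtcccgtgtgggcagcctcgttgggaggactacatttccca
Nr6a1 start 2 (chr2:38784516-38784665, - strand): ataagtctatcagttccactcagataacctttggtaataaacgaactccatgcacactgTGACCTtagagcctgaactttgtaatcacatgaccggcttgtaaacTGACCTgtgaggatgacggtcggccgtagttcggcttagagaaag
Pparg had an AGGTCA match at 28 bases before its first start and another at 9 bases before its second, and Nr1d2 had one at 77 bases. Nr6a1 had 2 before its second start, at 91 and 45 bases. No letters were capitalised for Ppara, Nr1d1, the third start of Pparg, the first start of Nr6a1 or either start of Hnf4a. Over 250 bases before the start and both strands, AGGTCA was found in 11 of 64 promoters of the receptors (17.2%), against 14.02% of all 32851 promoters of the same length. CACGTG was found in 5 of 64 (7.8%), against 6.02%, and in none of those shown. A direct repeat of this half-site with 1 free base between the copies, the form bound by PPAR heterodimers, occurred in 11 of the 32851 promoters (0.03%) and in 0 of the 64. A match is a run of letters and not evidence of binding.

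The deposited values are on a log2 scale relative to a baseline of each probe set, so that differences between groups are log2 ratios, and no absolute level is available. The authors took the baseline as the median of all samples, but it was not the median of these 9 arrays, which was 0 (within 1e-05) in only 0.809% of probe sets. The samples behind it are not given in the sources used here, and a constant baseline leaves the differences between groups as they are. One consequence is that the levels of hepatocyte genes could not be used to check the labelled tissue. Of 10 hepatocyte markers, 0 passed the limma test described below, 3 had an unadjusted p under 0.05, all lower, and their mean lay between -0.09 and 0.11 in every array. HFD replicate 5 stood apart from the other arrays, with 611 genes more than 1 from baseline against 120 to 218 in the others. Control replicates 2 and 4 were the lowest arrays for Ppara, Nr0b2 and Nr6a1.

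Markers of other liver cells moved with diet. An unadjusted p under 0.05 is given beside the calls for these lists, and was reached by 19.1% of all genes, 10.3% higher and 8.78% lower. Of 15 Kupffer cell markers, 11 fell, 14 were lower at an unadjusted p under 0.05, and the mean of the list was 0.15 to 1.33 in the control arrays and -1.26 to 0.14 in the HFD arrays. Of 16 endothelial markers, 3 fell, 13 were lower at an unadjusted p under 0.05 and all 16 differences were negative, with list means of 0.14 to 0.59 in control and -1.04 to 0.17 in HFD. Among 11 stellate cell markers, Rgs5 and Lrat rose and Reln fell, with 2 higher and 4 lower at an unadjusted p under 0.05. Of 7 neutrophil markers 1 fell, S100a9, and 4 were lower at an unadjusted p under 0.05. The neutrophil list means were 0.09 to 0.34 in control and -0.97 to -0.14 in HFD. None of the 4 biliary, 5 adipocyte and 8 lymphocyte markers passed in limma (0, 1 and 1 at an unadjusted p under 0.05). In whole tissue, fewer cells of a type and less RNA per cell cannot be told apart. The part of these shifts in the receptor differences below was not tested.

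Of the 44 receptors, 6 were higher in HFD and 2 were lower at an adjusted p under 0.05 (limma, Benjamini-Hochberg over all 17514 genes), or 18.2% of the family. The same test called 5.24% of all genes, 3.37% higher and 1.87% lower. Those that rose were Ppara, Pparg, Nr1d1, Nr1d2, Nr2f2 and Nr6a1, and those that fell were Hnf4a and Esr1. The median difference over the 44 receptors was 0.08, and over all genes it was -0.02. A difference under 0.2 in size was found for 23 of the 44 (52.3%), against 67.8% of all genes. The values of HFD and control did not overlap in 9 receptors, against 9.82% of all genes. These 9 were Ppara, Pparg, Nr1d1, Nr1d2, Nr6a1 and Rara above control (5.62% of all genes), and Hnf4a, Esr1 and Nr2c1 below it (4.2%). The family was chosen with earlier results of these data known, so that its shares against all genes are not independent support.

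**Figure D1:**
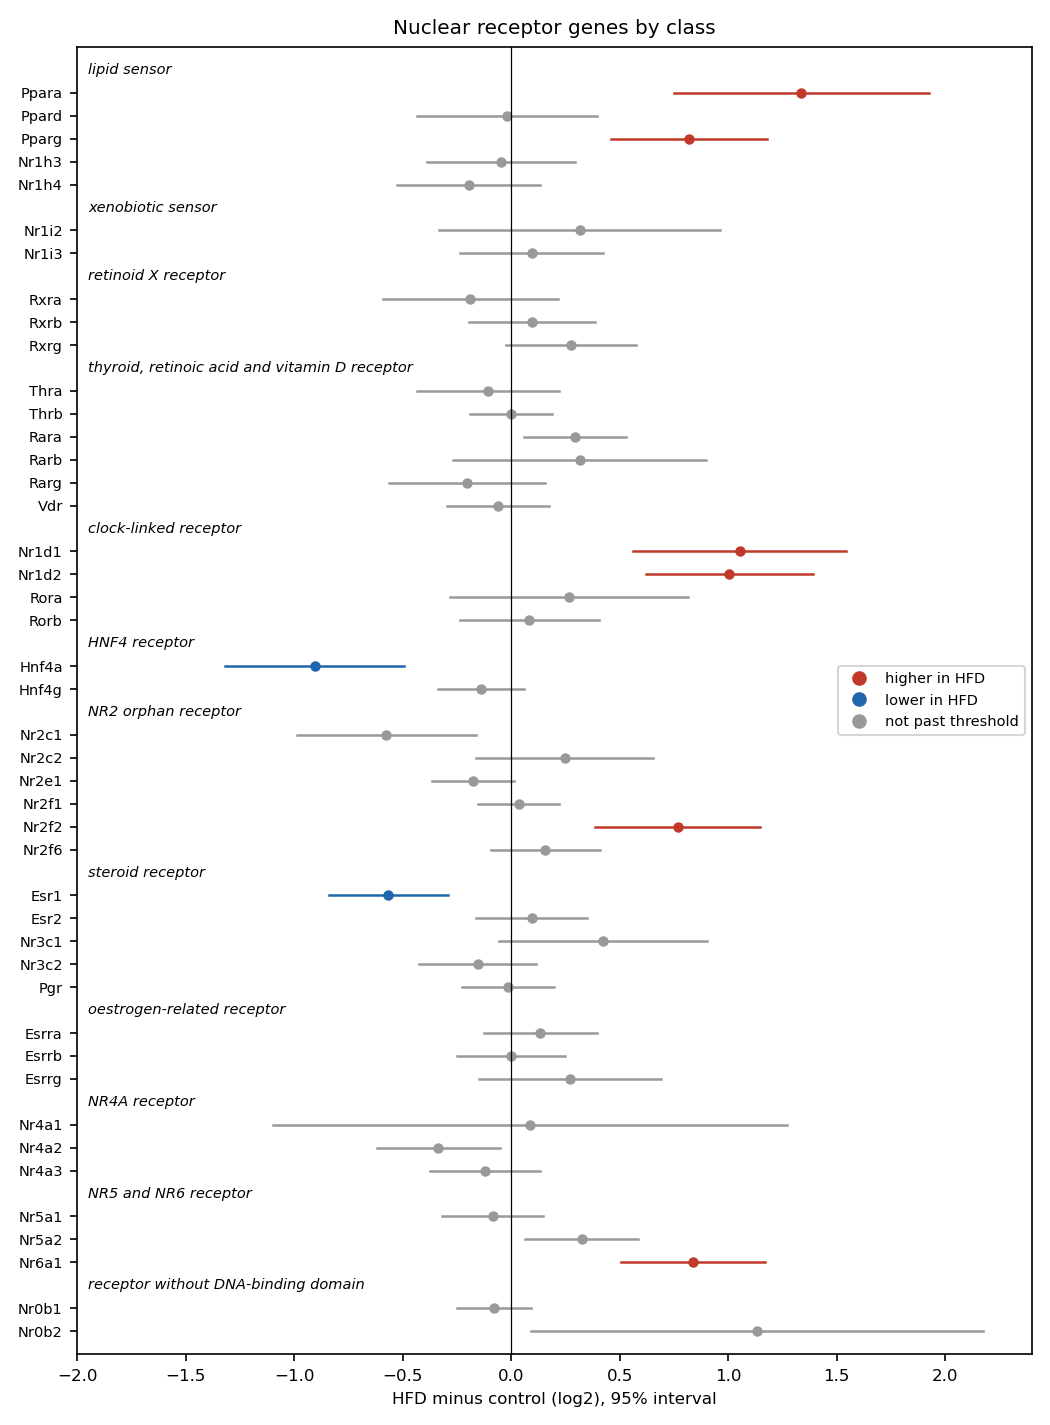
Difference between HFD (5 arrays) and control (4 arrays) for each of the 44 nuclear receptor genes, ordered by class, on the log2 scale (horizontal axis). Points are limma estimates and bars are 95% confidence intervals. Ppara, at 1.34, lies farthest to the right of the 6 that rose, and Hnf4a, at -0.91, farthest to the left of the 2 that fell.

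The lipid sensors split. Ppara, the fatty acid receptor that drives hepatic fatty acid oxidation and ketogenesis, and Pparg, the adipocyte differentiation factor that also promotes lipid storage in steatotic hepatocytes, rose, and the other 3 measured members of the class did not pass the test. For Ppara the control arrays read -0.79, -1.52, -0.10 and -1.55 and the HFD arrays 0.10, 0.27, 0.59, 0.29 and 0.48. All HFD arrays lay above all control arrays, and the spread was on the control side, with an SD of 0.69 in control against 0.19 in HFD. The difference was 1.34 ± 0.27 (SE, n = 4 and 5), a 2.53-fold rise with an adjusted p of 0.0185 in limma's fit. With control replicates 2 or 4 left out its adjusted p in the same fit was 0.0632 or 0.0515, and with HFD replicate 3 left out 0.0547.

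Pparg read -0.11, -0.66, -0.70 and -0.22 in control and 0.11, 0.25, 0.54, 0.74 and 0.34 in HFD. Again no array of one group reached into the other, and control replicate 1 and HFD replicate 1 came closest. Pparg rose by 0.82 ± 0.16, or 1.76-fold (limma adjusted p = 0.0183). The call was lost when control replicates 2 (0.0676) or 3 (0.0612) or HFD replicate 3 (0.0536) were left out. Ppard, the PPAR found in most tissues, differed by -0.02 (95% interval -0.43 to 0.40). Nr1h3, the oxysterol receptor LXRα, differed by -0.05 (-0.39 to 0.29), and Nr1h4, the bile acid receptor FXR, by -0.20 (-0.53 to 0.13). These intervals exclude a rise of the size seen in Ppara or in Pparg.

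Neither xenobiotic sensor passed. Nr1i2, the pregnane X receptor that induces drug-metabolising enzymes, differed by 0.31 with an interval of -0.33 to 0.96, and Nr1i3, the constitutive androstane receptor with overlapping targets, by 0.09 (-0.24 to 0.42). The common heterodimer partners did not pass either. Rxra differed by -0.19 (-0.59 to 0.21), Rxrb by 0.09 (-0.20 to 0.38) and Rxrg by 0.27 (-0.02 to 0.57). Within Rxra the lowest arrays were HFD replicates 3 and 5, at -0.52 and -0.72, and the others lay between -0.27 and 0.13.

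None of the 6 receptors for thyroid hormone, retinoic acid and vitamin D passed the threshold. The thyroid hormone receptors Thra and Thrb differed by -0.11 and -0.00146, and the vitamin D receptor Vdr by -0.06. Of the retinoic acid receptors, Rara lay between -0.36 and -0.02 in control and between 0.02 and 0.34 in HFD. The groups did not overlap, and the difference was 0.29 ± 0.11 with an adjusted p of 0.156 in the limma fit. Rarb differed by 0.31, and HFD replicates 3 and 4 alone, at 0.60 and 1.32, lay above the highest control array. Rarg differed by -0.20.

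Among the clock-linked receptors, both REV-ERB genes rose about 2-fold and both ROR genes did not pass. The REV-ERB proteins are haem-bound repressors that silence Arntl and other clock genes, and the RORs activate through the same response element. Nr1d1, or REV-ERBα, read -0.29, -0.43, -0.63 and -0.87 in control and -0.03, 0.91, 0.61, 0.95 and 0.06 in HFD. HFD replicates 1 and 5 sat just above the control arrays, and the other 3 HFD arrays were far above them. The difference was 1.05 ± 0.22, or 2.07-fold, and limma gave an adjusted p of 0.0235. Without control replicates 2, 3 or 4, or HFD replicate 3, the adjusted p was between 0.0625 and 0.0719.

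Nr1d2, or REV-ERBβ, read -0.78, -0.66, -0.08 and -0.34 in control and 0.08, 0.56, 0.58, 0.81 and 0.68 in HFD. Its groups did not overlap, and it rose by 1.00 ± 0.17, or 2.01-fold (limma adjusted p = 0.0102, the lowest in the family). The call held with each of the 9 arrays left out in turn, with differences between 0.90 and 1.13. Rora differed by 0.27 (-0.28 to 0.81) and Rorb by 0.08 (-0.24 to 0.40). For Rora, 3 of its 9 probe sets had a positive and 6 a negative difference, from -0.28 to 0.27.

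Hnf4a, the constitutively active receptor that maintains hepatocyte gene expression, fell, by the probe set with the largest spread. That probe set, 1421983_s_at, read 0.52, 0.59, 0.64 and 0.52 in control and -0.14, -0.07, -0.63, 0.07 and -0.92 in HFD. The control arrays lay close together, with an SD of 0.06 against 0.42 in HFD, and every HFD array lay below them. The difference was -0.91 ± 0.19, a 1.87-fold fall with an adjusted p of 0.0216 in limma. The call was lost without control replicates 2, 3 or 4 or HFD replicate 3 (limma adjusted p 0.0523 to 0.0696). After a further quantile normalization, where the probe set was chosen again, Hnf4a differed by -0.63 with an adjusted p of 0.179 in limma. That value need not come from 1421983_s_at. Hnf4g, its paralogue of the intestine and kidney, differed by -0.14 (-0.34 to 0.06).

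**Figure D2:**
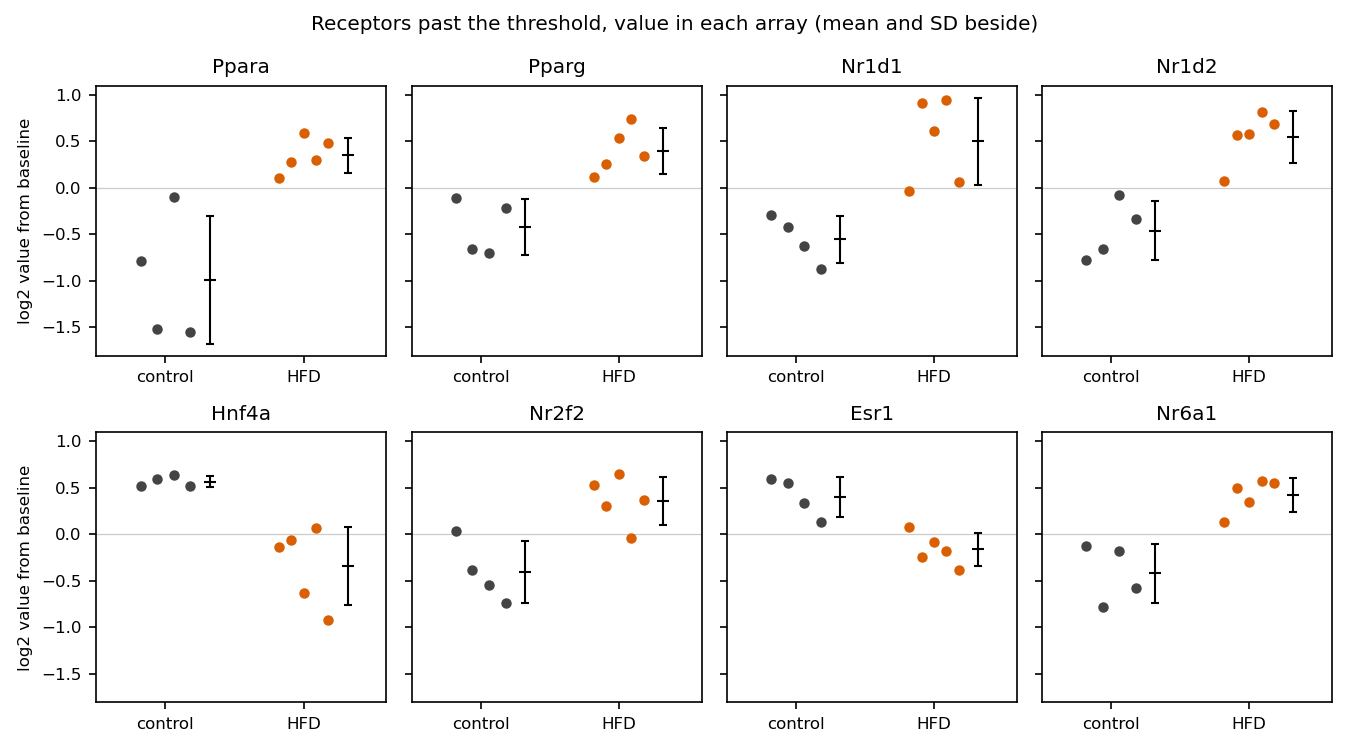
Value of each of the 8 receptors past the threshold in the 4 control and 5 HFD arrays (log2 value from the probe set's baseline, vertical axis). Each point is an array and the bar beside each group is the mean with its SD. In Ppara the control points spread from -1.55 to -0.10, in Hnf4a they lie together between 0.52 and 0.64, and only in Nr2f2 do the groups overlap.

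Of the NR2 orphan receptors, Nr2f2 was higher. Nr2f2 encodes COUP-TFII, a factor of venous endothelium and mesenchyme that is also present in hepatocytes. It read 0.04, -0.39, -0.54 and -0.74 in control and 0.53, 0.31, 0.64, -0.04 and 0.36 in HFD. Control replicate 1 lay above HFD replicate 4, so that the groups overlapped. Of the 16 endothelial markers given above, 3 fell and 0 rose, and 13 were lower at an unadjusted p under 0.05. Of the 11 stellate cell markers, 2 rose and 1 fell, with 2 higher and 4 lower at an unadjusted p under 0.05. The part of either list's shift in the Nr2f2 difference was not tested. The rise of 0.77 ± 0.17, or 1.70-fold, had an adjusted p of 0.0304 in limma. The call was lost with any of 7 arrays left out (limma adjusted p 0.0533 to 0.0942). These were control replicates 2, 3 and 4 and HFD replicates 1, 2, 3 and 5. Each of these fits chose the probe set with the largest spread again, and without HFD replicate 5 it was 1416160_at.

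Nr2c1, the testicular receptor 2, read 0.42, 0.10, 0.26 and 0.27 in control and 0.04, -0.07, -0.87, -0.04 and -0.62 in HFD. Its groups did not overlap and its difference was -0.58 ± 0.19, with an adjusted p of 0.114 in limma. All 5 of its probe sets had a negative difference, from -0.58 to -0.11. Its partner Nr2c2 differed by 0.25, the neural receptor Nr2e1 by -0.18, Nr2f1 by 0.03 and Nr2f6 by 0.16, and none passed.

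Esr1, the oestrogen receptor α and the main oestrogen receptor of liver, was the steroid receptor that fell. It read 0.59, 0.56, 0.34 and 0.13 in control and 0.08, -0.24, -0.08, -0.18 and -0.39 in HFD. Control replicate 4, the lowest of its group, lay just above HFD replicate 1, and the groups did not overlap. The fall was -0.57 ± 0.12, or 1.48-fold, with a limma adjusted p of 0.028. The call of Esr1 was lost in 6 of the 9 fits that left out an array, with limma adjusted p between 0.0586 and 0.218. The arrays were control replicates 1, 2 and 3 and HFD replicates 2, 3 and 4. It was also lost after a further quantile normalization (-0.50, limma adjusted p = 0.0752). Each of these fits chose the probe set with the largest spread again, so that not all of them read 1460591_at. Without control replicate 1 the difference was -0.44, read from 1435663_at.

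The other steroid receptors did not pass. Nr3c1, the glucocorticoid receptor, differed by 0.42 (-0.06 to 0.90), Nr3c2, the mineralocorticoid receptor, by -0.15, Esr2 by 0.09 and Pgr, the progesterone receptor, by -0.02. The oestrogen-related receptors, which work with PGC-1 coactivators on mitochondrial genes, also did not pass, with 0.13 for Esrra, -0.00091 for Esrrb and 0.27 for Esrrg.

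The 3 NR4A receptors, immediate-early genes induced within minutes by fasting hormones and stress, did not pass. Nr4a1 was among the most variable receptors in both groups, from -1.02 to 1.38 in control and from -0.77 to 1.45 in HFD, and its difference of 0.09 had an interval of -1.10 to 1.27. That interval contains changes as large as those of the REV-ERB genes. Nr4a2 differed by -0.34 (adjusted p = 0.18 in limma) and Nr4a3 by -0.12.

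Nr6a1, the germ cell nuclear factor, an orphan receptor best known from early embryos and gonads, rose. It read -0.13, -0.78, -0.18 and -0.58 in control and 0.13, 0.50, 0.34, 0.57 and 0.55 in HFD, without overlap. The rise was 0.84 ± 0.15, or 1.79-fold, with an adjusted p of 0.0121 in limma, and it stayed past the threshold in all 9 fits that left out 1 array. Nr5a2, or LRH-1, which supports bile acid synthesis, differed by 0.32 (adjusted p = 0.158), and Nr5a1, the steroidogenic factor, by -0.09.

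The receptors without a DNA-binding domain act by inhibiting other receptors. Nr0b2, the small heterodimer partner induced by bile acids through FXR, read 0.23, -1.34, -0.07 and -2.39 in control and 0.45, 0.84, 0.15, -0.30 and 0.07 in HFD. Control replicates 2 and 4 were far below the other 7 arrays, and the groups overlapped. Its difference of 1.13 ± 0.47 was second in size in the family to that of Ppara, and with a limma adjusted p of 0.219 it did not pass. Nr0b1 differed by -0.08.

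HFD replicate 5 was left out to see which calls held without the array that stood apart. Without it Ppara was higher by 1.30 (adjusted p = 0.0313), Pparg by 0.83 (0.0263), Nr1d1 by 1.16 (0.0162), Nr1d2 by 0.97 (0.0184) and Nr6a1 by 0.81 (0.0206), all in the limma fit. Hnf4a was lower by -0.76 (0.0163). Esr1 was lower by -0.57 (0.0374), read from probe set 1435663_at, which then had the largest spread. Nr2f2 no longer passed, at 0.72 (0.0839), read from probe set 1416160_at, which then had the largest spread. Over the 18 other settings and fits with an array left out, no called receptor changed sign. The adjusted p ran from 0.00567 to 0.0584 for Nr1d2, from 0.00782 to 0.0596 for Nr6a1, from 0.00382 to 0.0907 for Ppara, from 0.0121 to 0.0783 for Pparg and from 0.0129 to 0.0995 for Nr1d1. It ran from 0.00406 to 0.306 for Hnf4a, from 0.016 to 0.136 for Nr2f2 and from 0.0225 to 0.218 for Esr1.

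Every probe set of the receptors was then examined, because the probe set with the largest spread stood for a gene and this choice favours large differences. In a fit over all 41782 probe sets, 10 of the 113 passed, 8 higher and 2 lower, against 3.26% of all probe sets, 2.04% higher and 1.23% lower. The 3 probe sets of Ppara all rose, 1449051_at by 1.34 ± 0.26 (limma adjusted p = 0.022), 1439675_at by 1.01 ± 0.23 (0.0411) and 1457721_at by 0.86 ± 0.19 (0.0367). In 1439675_at the control arrays read -0.46, -1.30, -0.13 and -1.40 and the HFD arrays 0.28, 0.24, 0.13, 0.19 and 0.15. In 1457721_at the control arrays read -0.41, -1.05, -0.09 and -1.01 and the HFD arrays 0.09, 0.11, 0.35, 0.10 and 0.46. Control replicates 2 and 4 were the lowest and control replicate 3 the highest control array in each of the 3. Without HFD replicate 5, 1449051_at still passed (0.0381) and the other two did not (0.0601 and 0.0633). Pparg had the single probe set 1420715_a_at.

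Of the probe sets of Nr1d2, 1416958_at gave the values above, and the other, 1416959_at, read -0.01, -0.22, 0.01 and -0.47 in control and 0.13, 0.22, -0.02, 0.77 and 0.11 in HFD. Its groups overlapped, with HFD replicate 3 below control replicates 1 and 3, and its difference was 0.42 ± 0.16 (limma adjusted p = 0.222).

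All 4 probe sets of Hnf4a had a negative difference and 1 passed. Probe set 1450447_at read 0.24, 0.02, 0.43 and 0.10 in control and -0.09, -0.02, -0.60, 0.26 and -1.19 in HFD, a difference of -0.52 ± 0.25 (adjusted p = 0.334). Probe set 1427000_at read -0.05, 0.05, 0.37 and 0.27 in control and -0.50, -0.84, -0.29, -0.70 and 0.58 in HFD, a difference of -0.51 ± 0.25 (0.339). Probe set 1427001_s_at read -0.31, -0.08, 0.21 and 0.28 in control and -0.32, -0.41, 0.08, -0.43 and 0.52 in HFD, a difference of -0.14 ± 0.20 (0.798). The HFD arrays took nearly opposite orders in these probe sets. HFD replicate 5 was the lowest array in 1421983_s_at and 1450447_at, at -0.92 and -1.19, and the highest in 1427000_at and 1427001_s_at, at 0.58 and 0.52. Without that array 1427000_at differed by -0.74 ± 0.14 and passed (adjusted p = 0.0192), as did 1421983_s_at (-0.76 ± 0.14, 0.0184), and the other two did not (0.396 and 0.413). With the 4 probe sets averaged Hnf4a was lower by -0.52, with an adjusted p of 0.00406 over all genes in limma. In that average the opposite readings of HFD replicate 5, and those of HFD replicate 4, offset each other and the spread within HFD shrinks. Whether the 4 probe sets share a response was not tested by that average. Without _x_at and _s_at probe sets Hnf4a did not pass (adjusted p = 0.306 in limma).

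**Figure D3:**
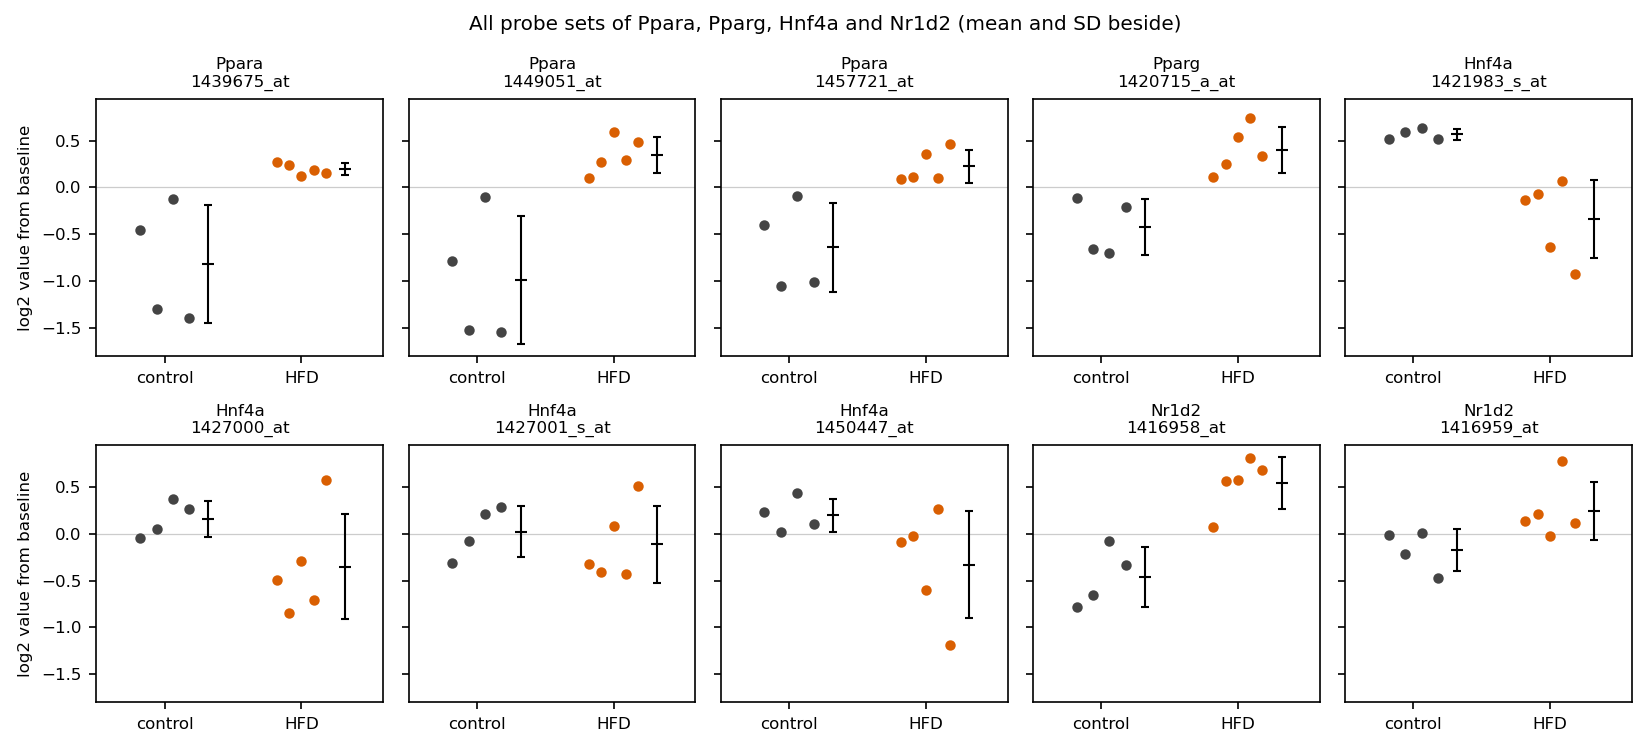
All probe sets of Ppara, Pparg, Hnf4a and Nr1d2 in the 4 control and 5 HFD arrays (log2 value from baseline, vertical axis). Each point is an array, in the order of replicate number, and the bar beside each group is the mean with its SD. The last HFD point is the lowest in Hnf4a 1450447_at, at -1.19, and the highest in Hnf4a 1427000_at, at 0.58.

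Whether probe sets of one gene differed in their response was tested on the within-array difference of each pair. Over 10 pairs in Ppara, Hnf4a and Nr1d2, 0 passed an adjusted p of 0.05 in the exact two-sided permutation test over all splits of the arrays into 4 and 5, and 3 had an unadjusted p under 0.05. Benjamini-Hochberg over 10 pairs needs at least 4 of them at the smallest p this test allows before any passes, so that the count says little. With limma on these differences, which has no such limit, the count was also 0. That smallest p, 0.0159, was reached by Ppara 1449051_at against 1457721_at, which differed by 0.47 (adjusted p = 0.106). Within Hnf4a, the difference was more negative in 1421983_s_at than in 1450447_at by 0.38 and in 1427000_at than in 1427001_s_at by 0.37, each with an exact p of 0.0317 and an adjusted p of 0.106. For Nr1d2 the pair differed by 0.59 (exact p = 0.0635, adjusted p = 0.127).

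Outside these genes, the other called receptors with several probe sets had 1 probe set past the threshold each. Nr2f2 had 6 probe sets, all with a positive difference from 0.01 to 0.77, and averaging them gave 0.32 (adjusted p = 0.136). Its second-ranked probe set, 1416160_at, differed by 0.64 ± 0.20 (adjusted p = 0.122 in limma). Nr6a1 had 5, all positive from 0.04 to 0.84, and averaged 0.28 (0.0478). Esr1 had 3 that did not share a sign. Probe set 1460591_at fell by 0.57, 1435663_at differed by -0.47 ± 0.15 (0.12), and 1421244_at by 0.25 ± 0.09 (0.191), with every HFD array above every control array in the last. Averaged, Esr1 was lower by -0.26 (0.0898). With probe sets averaged in every gene, 5 receptors were higher and 1 was lower, against 5.17% of all genes called.

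**Figure D4:**
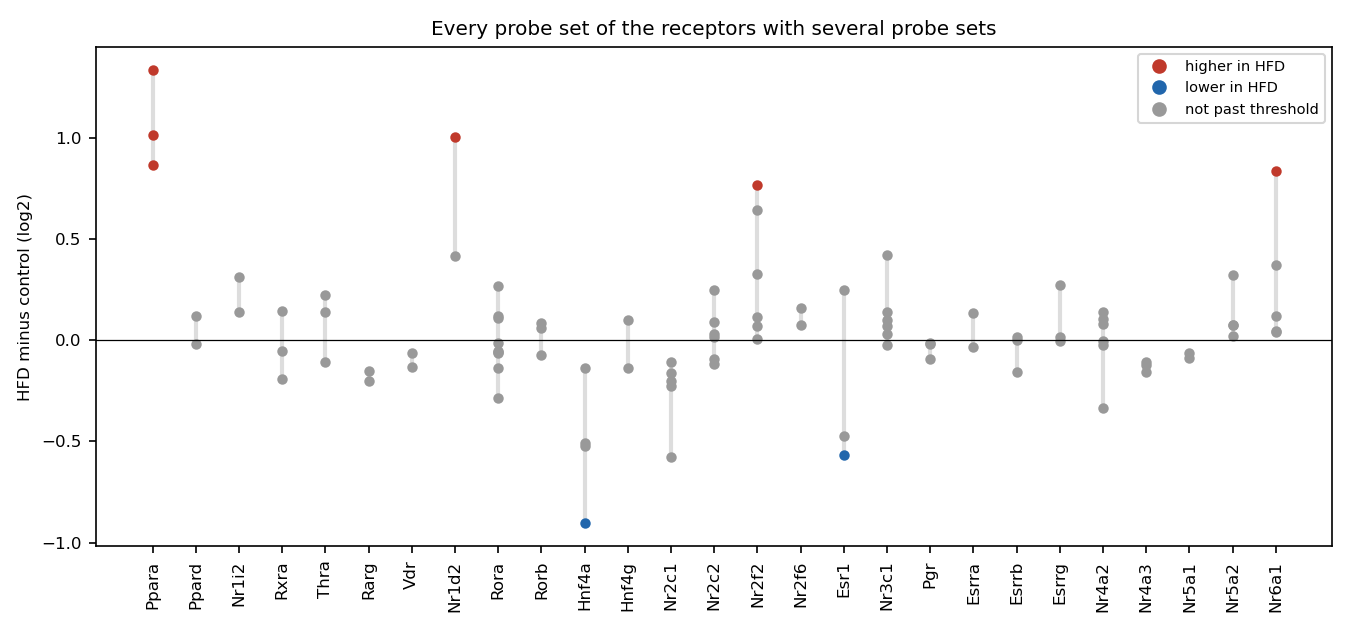
Difference between HFD and control (log2, vertical axis) of every probe set of the 27 receptors with several probe sets, in the order of classes used above. Each point is a probe set, coloured by its call in the fit over all probe sets, and grey bars join the lowest to the highest. Ppara is the receptor with all probe sets past the threshold, and Esr1 has points on both sides of 0, from -0.57 to 0.25.

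The genes that receptors act on and the proteins they work with were read from lists of known targets, cofactors and ligand-handling enzymes. The counts and medians of these lists do not separate targets that a receptor induces from those it represses. They are therefore not a measure of receptor activity. The lists were also chosen with earlier results of these data known. A count or median of a list set against all genes, here or below, is thus not independent support. Of 141 distinct genes measured in these lists, 25 rose and 7 fell, against 5.24% of all genes called. Of these 32 calls, 22 held with each array left out in turn. The other 10 are named at the end of this account, with the arrays whose removal ended the call.

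The PPARα list held genes of fatty acid transport and oxidation together with other known targets such as Vnn1 and Fgf21. Of 15 measured, 3 rose, 0 fell and 12 did not pass, against 3.37% higher and 1.87% lower of all genes. The list median was 0.24. At an unadjusted p under 0.05 in limma, 5 were higher and 0 lower, against 10.3% and 8.78% of all genes. The list mean was -0.524 to -0.020 in the control arrays and -0.014 to 0.215 in the HFD arrays, a narrow separation without overlap. Vnn1, a pantetheinase, rose by 1.83 ± 0.25 (adjusted p = 0.00338), Slc25a20, the mitochondrial carnitine carrier, by 0.42 ± 0.08 (0.0117) and Acaa1b, a peroxisomal thiolase, by 0.43 ± 0.09 (0.021). Cpt1a, the gatekeeper of mitochondrial fatty acid entry, differed by 0.40 ± 0.13 (0.121), Pdk4 by 1.11 ± 0.53 (0.295) and Cyp4a14 by 0.23 ± 0.45 (0.839).

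Targets of PPARγ in fatty liver are genes of lipid uptake and storage. Of 9 measured, 4 rose and 0 fell, and the list median was 1.51, against -0.02 for all genes. Cd36, a fatty acid transporter, rose 5.34-fold, by 2.42 ± 0.29 (limma adjusted p = 0.00187). The lipid droplet proteins Cidec and Cidea rose by 2.25 ± 0.38 (0.00934) and 1.85 ± 0.33 (0.012), and Mogat1, which makes diacylglycerol, by 1.51 ± 0.27 (0.0121). The list mean was -0.98 to -0.47 in the control arrays and 0.16 to 1.08 in the HFD arrays, without overlap. Of the adipocyte genes in this list, Adipoq differed by 0.03 ± 0.13 and Fabp4 by -0.41 ± 0.42. Car3, a carbonic anhydrase that is abundant in adipocytes and also made in liver, was the adipocyte marker farthest from 0, with a difference of 3.26 (95% interval 0.61 to 5.90) that did not pass (adjusted p = 0.162 in limma). The mean of the 5 adipocyte markers was -0.53 to 0.43 in control and 0.16 to 0.52 in HFD.

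Although Nr1h3 itself differed by -0.05, 4 of 11 LXR targets rose and 1 fell, with a list median of 0.11. The sterol exporters Abcg5 and Abcg8 rose by 1.99 ± 0.20 and 1.48 ± 0.16 (limma adjusted p = 0.000864 and 0.00116), or 3.96-fold and 2.78-fold. Srebf1, the activator of lipogenic genes, rose by 1.54 ± 0.26 (0.00911), and Scd1, a fatty acid desaturase, by 1.32 ± 0.30 (0.0337). Cyp7a1, which carries out the first and limiting step from cholesterol to bile acids and is a target of LXR, FXR and HNF4α alike, fell by 1.63 on the log2 scale (SE 0.30, adjusted p = 0.0123), or 3.09-fold. Abca1 differed by 0.02 ± 0.37 and Pltp by -1.25 ± 0.36 (0.0742).

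Of 10 FXR targets, 2 rose and 1, Cyp7a1, fell, with a median of -0.13. The canalicular transporters Abcb4 and Abcc2 rose by 0.53 ± 0.10 and 0.43 ± 0.09 (limma adjusted p = 0.0153 and 0.0204), and Abcb11, the bile salt export pump, differed by -0.22 ± 0.10 (0.286). Of 13 CAR and PXR targets, 1 rose and 2 fell, with a median of -0.10. Cyp2b9, a cytochrome of the inducible Cyp2b family, rose 18.2-fold, by 4.19 ± 0.68 (0.0076), the largest difference in any of these lists. Cyp2c55 fell 3.78-fold (-1.92 ± 0.14, 8.94e-05) and the esterase Ces2a 1.73-fold (-0.79 ± 0.18, 0.0311). The classical CAR target Cyp2b10 differed by -1.12 ± 0.42 (0.172) and the PXR target Cyp3a11 by -0.04 ± 0.09 (0.873).

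Of 9 targets of the REV-ERBs and RORs, 2 rose and 2 fell. Insig2, which holds back SREBP processing, rose by 1.08 ± 0.14 (limma adjusted p = 0.00244) and Npas2, a partner of BMAL1, by 0.90 ± 0.16 (0.0097). Nfil3, a repressor of D-box genes, fell by 0.59 (SE 0.10, 0.00826), and Cyp7b1, an oxysterol hydroxylase, fell by 1.90 (SE 0.41, 0.0266). Arntl, which encodes BMAL1, differed by -0.22 ± 0.21 (0.637). Of 10 clock genes driven through E-boxes, the element by which Nr1d1 and Nr1d2 are also driven, 1 rose, Hlf by 0.99 ± 0.19 (0.0144), and the list median was 0.48. At an unadjusted p under 0.05 in limma, 5 of the 10 were higher and 0 lower, against 10.3% and 8.78% of all genes. The groups did not overlap in 3 of the 10, all higher, against 5.62% of all genes. Dbp differed by 0.76 ± 0.21 (0.0647), Per2 by 0.87 ± 0.25 (0.0782) and Per1 by -0.14 ± 0.39 (0.893). The hour at which each liver was taken was not given in the sources used here, and diet and hour of sampling cannot be told apart in these clock-linked values.

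Of 12 HNF4α targets, 2 rose and 1, Cyp7a1, fell, with a median of -0.03. Apob, the protein of very low density lipoprotein, rose by 1.27 ± 0.18 (limma adjusted p = 0.00455) and Pklr, the liver pyruvate kinase, by 1.28 ± 0.25 (0.0177). Mttp differed by -0.08 ± 0.23 and Ttr by 0.01 ± 0.08. Of 6 thyroid hormone targets, 2 rose, the mitochondrial glycerol phosphate dehydrogenase Gpd2 by 1.22 ± 0.19 (0.00583) and the deiodinase Dio1 by 0.56 ± 0.13 (0.0391). Of 6 retinoic acid targets, 1 rose, the retinoic acid hydroxylase Cyp26a1, by 1.76 ± 0.24 (0.00385). The mean of the retinoic acid list was -0.31 to -0.06 in the control arrays and 0.23 to 0.33 in the HFD arrays, without overlap.

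Of 10 glucocorticoid targets, 0 passed in limma, 5 had an unadjusted p under 0.05, all lower (8.78% of all genes), and the list median was -0.92. The HFD arrays were far from uniform, the list mean being -1.67 in HFD replicate 1, -0.87 and -0.78 in HFD replicates 2 and 3, and 0.14 and 0.10 in HFD replicates 4 and 5. The control arrays lay between -0.03 and 0.57. Leaving out 1 array gave 2 calls without HFD replicate 4, Pck1 (-1.75 ± 0.37, adjusted p = 0.0259) and Sgk1 (-1.37 ± 0.33, 0.0418), and 0 calls in each of the other 8 fits, among them that without HFD replicate 5.

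**Figure D5:**
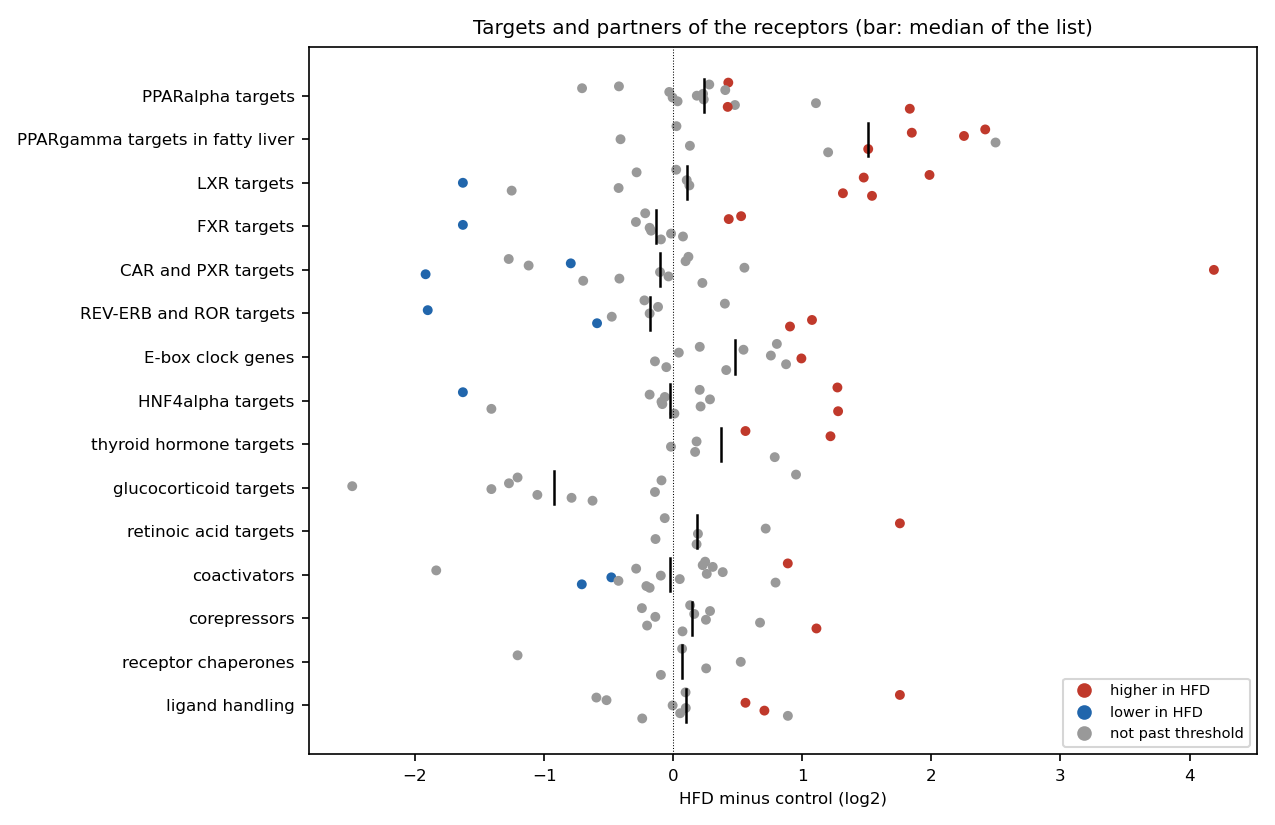
Difference between HFD and control (log2, horizontal axis) for each gene of the 15 lists of targets, cofactors and ligand-handling enzymes. Each point is a gene, coloured by its call, and the vertical bar is the median of its list. The PPARγ list has a median of 1.51, the glucocorticoid list has one of -0.92 with 0 genes past the threshold, and the point farthest to the right, at 4.19, is Cyp2b9.

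Among cofactors, 1 of 16 coactivators rose and 2 fell. Crebbp, an acetyltransferase, rose by 0.89 ± 0.15 (limma adjusted p = 0.00913). Pprc1, a relative of PGC-1, fell 1.63-fold (-0.71 ± 0.14, 0.0159) and Ncoa3, a p160 coactivator, 1.39-fold (-0.48 ± 0.09, 0.0177). Ppargc1a differed by -0.42 ± 0.81 (0.833). Of 10 corepressors, 1 rose, Tbl1x, a subunit of the NCoR complex, by 1.11 ± 0.15 (0.00335). Of 5 receptor chaperones 0 passed in limma (1 at an unadjusted p under 0.05), and of 11 genes that make, carry or break down ligands 3 rose, Cyp26a1 and Dio1 as above and Lrat, which esterifies retinol and also marks stellate cells, by 0.71 ± 0.17 (0.0424).

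The 10 list genes whose call did not hold with every array left out were these. Hlf was lost without control replicate 2 (0.0544). Ncoa3 was lost without control replicates 2 or 3 (0.0563 to 0.0609), and Pklr without control replicates 2, 3 or 4 (0.0524 to 0.0614). Acaa1b was lost without control replicates 2 or 3 or HFD replicate 3 (0.0561 to 0.0745), and Abcc2 without control replicates 2 or 4 or HFD replicate 3 (0.055 to 0.0745). Ces2a and Cyp7b1 were lost without any 1 of the 4 control replicates or HFD replicate 3 (0.0715 to 0.086 and 0.051 to 0.0923). Scd1 was lost without control replicates 2, 3 or 4 or HFD replicates 1, 2 or 3 (0.0501 to 0.112), and Dio1 without control replicates 1, 3 or 4 or HFD replicates 1, 2 or 3 (0.0725 to 0.111). Lrat held only without HFD replicate 1 and was lost without any other array (0.0503 to 0.134). All of these are adjusted p from limma over all genes.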

How the data were processed

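Liver RNA was hybridised to Affymetrix arrays as biotin-labelled product, per the labels' protocols. The log2 values were made by the authors with RMA, quantile normalization and a shift of each probe set to its median over all samples, per the series' design text. No log base is stated there. The scale was taken as log2 since RMA gives it and the values lie on both sides of 0. No filter on signal was possible. Of 41842 probe sets, 60 array controls were left out. Per gene, the probe set with the largest standard deviation over the 9 arrays was used. It was chosen again in the fits that left out an array and in those on other scalings.

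HFD (5 arrays) was compared with control (4 arrays) with lmFit and eBayes of limma 3.58.1 under R 4.3.3 (two-sided, Benjamini-Hochberg over all genes, or over all probe sets for single probe sets, threshold 0.05). The fit was tested on simulated data. Replicates were numbered in order of deposition. Precision is set by how few arrays there are.

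The members and lists were chosen with earlier results of these data known. All measured receptors are named. From each list the genes past the threshold were named, up to the 4 with the lowest p. Scd1 and the list genes named without passing were named after their values were seen, and those of the cell type lists likewise. Promoters came from RefSeq (GRCm38.p6). Alternatives were other scalings, averaged probe sets, filters, variance models, thresholds and leaving out each array.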

Additional observations from a re-analysis of the deposited data

Results flagged for a closer look

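In Rarb, the retinoic acid receptor β, control replicate 1 read 0.29 and the next control array 0.00, a gap large against the range of the 4 control arrays. It was the 1 array found to stand apart among 100 sets of values of the receptors examined in this way, and chance gives about 1 in 20. Rarb was not past the threshold.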

How the results depend on the processing

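The count of receptors higher in HFD stayed at 5 or 6 under 9 of 11 other settings, and the count lower stayed at 2 under 5. No named receptor past the threshold changed sign under any setting run. With the unmoderated test, and with an adjusted p under 0.01, 0 receptors were higher and 0 lower, where Nr1d2 had an unmoderated adjusted p of 0.0584. The count lower was 0 after a further quantile normalization, and 1 with probe sets averaged, without _x_at and _s_at probe sets (Hnf4a -0.52, adjusted p = 0.306) and with a change of at least 1.5-fold. Leaving out 1 array gave 2 to 6 higher and 0 to 2 lower. The lowest counts, 2 higher and 0 lower, came without control replicate 2 and without HFD replicate 3, when 385 and 465 genes were called among all genes. Of single probe sets of the receptors, 2 to 8 were higher and 0 to 4 lower with 1 array left out, against 8 and 2. In the target and cofactor lists, 14 genes were higher and 3 lower with the unmoderated test, 14 and 2 at an adjusted p under 0.01, and 19 to 26 and 4 to 11 with 1 array left out. The test of pairs of probe sets has too few arrays for its count to bear on stability. The median over all genes lay at -0.02 under each of the 3 scalings. The single probe set and list alternatives were chosen after seeing the data. No paired analysis was possible because the labels carry no replicate numbers shared by the groups. With 4 and 5 arrays and no level or signal over background in the centred values, receptors of low expression cannot be told from receptors that differ little.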
